A study of Mus musculus with 4 samples.

Results

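The nerve cells of the mouse Achilles tendon were taken as all cells that the authors' annotation names nerve cells 1, 2 or 3, together 127 of 1191 cells, with 49, 46 and 32 cells in the named populations. The remaining 1064 cells fall under 10 other names for fibroblasts of the tendon and its bursa, endothelial cells, pericytes, immune cells and red blood cells. Cells came from the Achilles tendons of male C57Bl/6 mice aged 6 weeks and were profiled with a droplet method that reads the 3-prime end of each transcript and counts unique molecular identifiers (UMIs), so that PCR copies of a molecule count once. There are 4 libraries of this single group, with no treatment and no second genotype. Whether each library came from 1 mouse or from several is not stated, so that the spread between libraries may be partly technical, and p-values over libraries measure that spread only.

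Peripheral nerves enter tendons as bundles of axons wrapped in Schwann cells, the glia that derive from the neural crest. A myelinating Schwann cell ensheathes a single large axon in a compact, lipid-rich membrane held together by proteins such as myelin basic protein (Mbp) and peripheral myelin protein 22 (Pmp22). Non-myelinating Schwann cells hold several thin axons, cover nerve endings, and keep adhesion molecules such as L1cam and Ncam1 on their surface. Both kinds need the transcription factor Sox10 and the neuregulin receptor pair Erbb2 and Erbb3. The cell bodies of the neurons lie outside the tendon, in ganglia and the spinal cord.

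The name "nerve cells" was set against marker genes. Sox10 had 262 UMIs in the nerve cells and 3 in all other cells, and was found in each of the 3 populations. Of 10 neuron genes, 6 were matched in the count table, and they summed to 37.1 to 210.4 counts per 1000000 UMIs (CPM) in the nerve cells of a library, with Rbfox3, Stmn2 and Nefm at 0. The same genes summed to 23.8 to 81.5 CPM in other cells, so that the nerve sum was higher only in libraries 3 and 4. Most of the highest sum, that of library 4, was Tubb3, a tubulin gene, at 191 CPM. Of the 2 neuron genes that could be tested as described below, Uchl1, an enzyme of ubiquitin turnover, was called higher in nerve cells (42, 22.7, 37.1 and 19.1 CPM against 10.5, 2.38, 2.29 and 3.02) and Stmn2 lower. Of the other markers checked, Chl1, a cell adhesion molecule, had 0 UMIs in nerve cells 1 and 2 and 118 in nerve cells 3. Ptprz1, a receptor-type phosphatase, had 103 UMIs in nerve cells 3, of which 101 were in 4 cells of library 4.

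Those 4 cells stand apart and bear on every value of library 4. Library 4 holds 5 nerve cells 3 and 1 of nerve cells 1, and 4 of these 6 have nearly the same cell barcode. The 4 barcodes are printed to show how close they are, with the last 3 positions, where they differ, in capitals, and each is named by the UMIs of its cell.
Barcode with 43707 UMIs: taggttgtcagcaTTG
Barcode with 1883 UMIs: taggttgtcagcaTTA
Barcode with 1659 UMIs: taggttgtcagcaTCG
Barcode with 1088 UMIs: taggttgtcagcaCTG

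Each of the 3 shallow barcodes differs from the deep one at 1 position, which is position 16, 15 or 14 counted from the 5′ end. Over all 4 libraries, 7 of 236571 pairs of cells within a library differed at 1 position, all with the same population name and with a deep and a shallow member, and 6 of the 7 pairs were in library 4. Between libraries 0 of 472074 pairs did, and no barcode was shared by 2 libraries. Together the 4 barcodes hold 48337 UMIs, which is 92.5% of the nerve UMIs of library 4 and 34.8% of all UMIs of nerve cells 3. They carried the same set of genes: Aqp1 (a water channel) had 511, 20, 22 and 16 UMIs in them, and Mgp (matrix Gla protein) 312, 13, 11 and 15. Whether they are 1 cell or 4 cannot be read from the table, and results are given below with and without them.

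**Figure D1:**
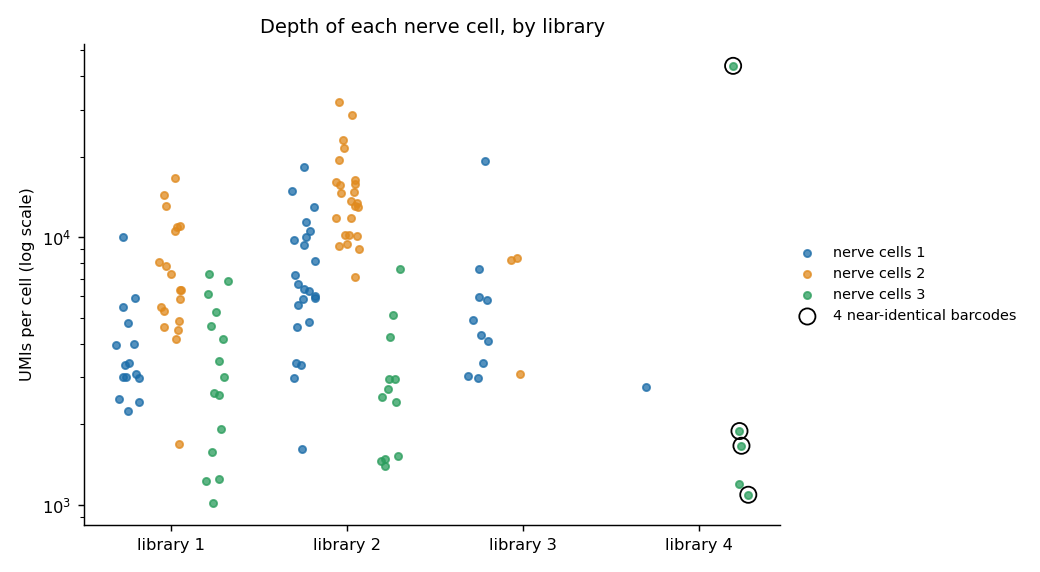
UMIs per cell (log scale) of each of the 127 nerve cells, by library and population, with the 4 near-identical barcodes of library 4 ringed. The deepest nerve cell of all, with 43707 UMIs, is the ringed cell at the top of library 4, and the other 5 nerve cells of that library have between 1088 and 2746 UMIs.

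Nerve cells made up 8.45% in library 1 (49 of 580 cells, exact 95% interval 6.32 to 11), 24% in library 2 (59 of 246 cells, exact 95% interval 18.8 to 29.8), 5.08% in library 3 (13 of 256 cells, exact 95% interval 2.73 to 8.53) and 5.5% in library 4 (6 of 109 cells, exact 95% interval 2.05 to 11.6), a mean of 10.8% ± 8.95 (SD, n = 4 libraries). Library 2 had the highest share, and its interval did not overlap those of the other 3 libraries. With tendon and bursal fibroblasts taken out of the count, library 2 was still highest at 25.4%, against 13%, 14.6% and 8.33%, but its interval (20 to 31.5) overlapped that of library 3 (8.01 to 23.7). The intervals cover the counting of cells within a library only. Nerve cells 3 were 15 of 49, 12 of 59, 0 of 13 and 5 of 6 nerve cells in libraries 1 to 4. Their mean share of 33.6% ± 35.5 thus has a spread as large as itself, and 4 of the 5 cells of library 4 are the near-identical barcodes. Without these 4 the shares were 30.6, 20.3 and 0% in libraries 1 to 3, with 2 nerve cells left in library 4. The 0 of 13 in library 3 allows a share of up to 24.7% (exact 95% interval).

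Nerve cells were sequenced to a median of 4619, 9290, 4887 and 1771 UMIs in libraries 1 to 4, against 7884, 7586, 7749 and 8889 in all other cells. They were shallower in 3 of 4 libraries (mean difference -2885.2 ± 3611 UMIs, SD; two-sided exact sign-flip test, p = 0.25, where 4 pairs cannot go below 0.13). The mitochondrial share of UMIs was 5.34% ± 0.888 in nerve cells and 4.81% ± 0.436 in other cells (SD, n = 4, same exact test, p = 0.375). With red blood cells left out, the share of the other cells was 5.22% ± 0.766. The nerve share was then higher in 1 of 4 libraries, and nerve cells were deeper in 0 of 4. With all libraries summed, the mitochondrial share was 7.03, 3.91 and 4.66% in nerve cells 1, 2 and 3, the 4 barcodes included. Depth differed more among the nerve populations: the median was 4887 UMIs in nerve cells 1, 10370 in nerve cells 2 and 2591 in nerve cells 3. The nerve UMIs summed to 261742, 572422, 80874 and 52277 in libraries 1 to 4, so that values of library 2 are the most precise and those of library 4 the least.

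The first comparison set the nerve cells of each library against all its other cells. How the annotation was made is not given in the sources used here, and it may rest on these same counts, so the fold changes describe what the named cells carry and test nothing. A gene is said to be called where the edgeR quasi-likelihood test gave an adjusted p under 0.05. Of 8693 genes tested, 1905 were called (21.9%), with 756 higher (8.70%) and 1149 lower (13.2%) in nerve cells, and 1731 of them had the same direction in all 4 libraries. Without library 4, which is also the result without the 4 barcodes since 2 nerve cells remain there, 2670 of 9313 genes were called (28.7%), with 1130 higher (12.1%) and 1540 lower (16.5%). Of the 1905 calls, 1863 were also made without library 4. The count was 1181 without library 1 and 965 without library 2, the libraries with the most nerve cells. The median log2 fold change over all genes tested was -0.10. A gene could pass the filter on low counts through the nerve sums alone or through the other sums alone. The counts of each list that follow thus describe the genes tested and not the list, and the shares called here stand beside them.

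Most genes of the Schwann lineage were high in the nerve cells of every library. Sox10, the transcription factor that specifies and maintains Schwann cells, stood at 252, 269, 247 and 421 CPM in the nerve cells of libraries 1 to 4 and at 0.374, 0.595, 0 and 0 CPM in all other cells. The nerve sums and the other sums did not overlap, and the pooled ratio was 951 (exact 95% interval 322 to 4641). Erbb3, the receptor that binds axonal neuregulin, stood at 176, 94.3, 86.6 and 344 CPM against 0.749, 0, 0.457 and 1.51 (log2 fold change 7.65 ± 0.46 SE). Unlike the myelin genes below, Sox10 and Erbb3 had their highest nerve level in library 4, the library of the 4 barcodes.

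Of 12 genes listed for the Schwann lineage, 10 could be tested and 9 were called higher, with none called lower and a median log2 fold change of 6.11. Without library 4, 12 of 12 were called higher. Listed genes with no UMIs outside the nerve cells, Foxd3 and Gpr37l1, could be tested only through the nerve sums. S100b, a calcium-binding protein in routine use to stain Schwann cells, stood at 283, 411, 482 and 1243 CPM against 36.9, 8.33, 11 and 27.2. Cdh19, a cadherin of the neural crest lineage, stood at 287, 155, 61.8 and 344 CPM against 2.81, 1.19, 0 and 0.756. Gjc3, which encodes a connexin of glia, had 301 UMIs in nerve cells and 3 in all others, a CPM ratio of 1092 (exact 95% interval 370.3 to 5327). Each of these genes was higher in nerve cells in 4 of 4 libraries. Foxd3, a transcription factor of the early neural crest, and Gpr37l1, a receptor of glia, had 0 UMIs outside the nerve cells, with 245, 234, 49.5 and 0 and 99.3, 114, 74.2 and 0 CPM within them. Cd9, a tetraspanin that many cell types carry, was the listed gene that was tested and not called (log2 fold change 1.83 ± 0.65 SE).

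**Figure D2:**
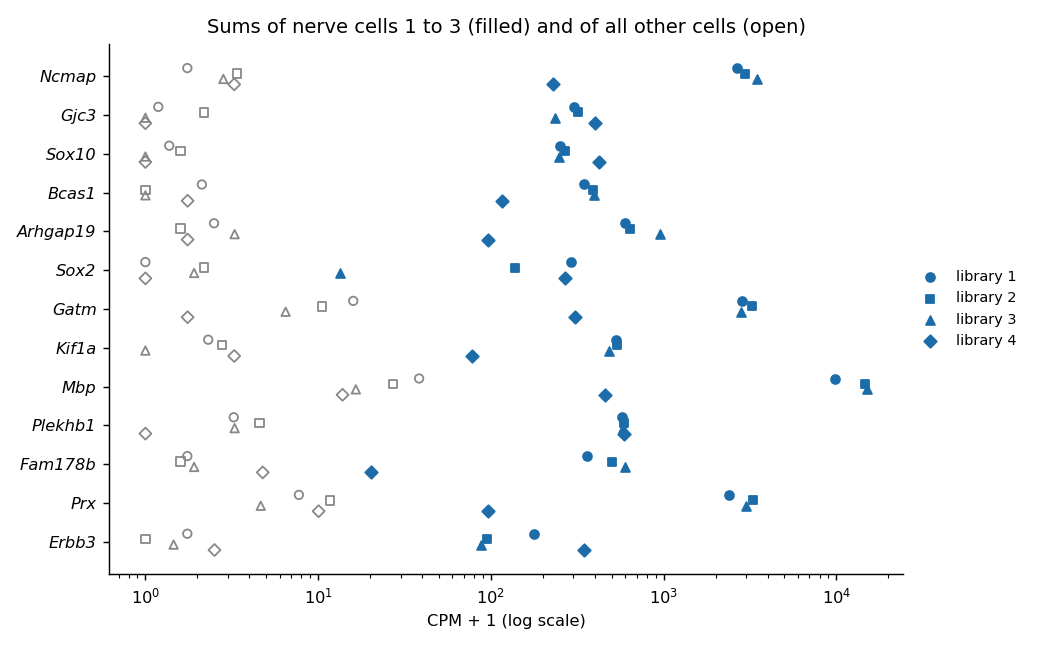
CPM + 1 (log scale) of 13 of the 16 genes with the largest rise, in the summed nerve cells (filled) and the sum of all other cells (open) of each of 4 libraries, shown by marker shape. All nerve points lie right of all open points of the same gene, and the diamonds of library 4 lie left of the other filled points for Mbp, Prx and Ncmap but not for Sox10, Erbb3 and Plekhb1.

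Myelin genes reached high levels in the nerve cells of libraries 1 to 3 and lower ones in library 4. Mbp, which compacts the myelin membrane from its cytoplasmic side, stood at 9872, 14627, 15011 and 459 CPM in the nerve cells of libraries 1 to 4, and at 37.4, 26.2, 15.5 and 12.9 CPM in all other cells (log2 fold change 8.09 ± 0.88 SE). Pmp22, whose duplication causes an inherited neuropathy, stood at 17613, 24761.5, 31085 and 1339 CPM against 318, 167, 549.8 and 454 (log2 fold change 5.23 ± 0.98 SE). Pmp22 was also found outside the nerve cells, most in tendon fibroblasts 1 at 784 CPM. Prx (periaxin), a scaffold that links the myelin sheath to the basal lamina, stood at 2407, 3298, 3005 and 95.6 CPM against 6.74, 10.7, 3.66 and 9.07. Ncmap, a small membrane protein of non-compact myelin, stood at 2663, 2961, 3475 and 229.5 CPM against 0.749, 2.38, 1.83 and 2.27 (log2 fold change 10.11 ± 0.84 SE). Bcas1, which marks glia that are forming myelin, stood at 344, 388, 396 and 115 CPM against 1.12, 0, 0 and 0.756.

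Of 20 genes listed for the myelin sheath and its regulators, 13 were tested, 12 were called higher and 1 lower, the tetraspanin gene Tspan2. Without library 4, 19 were tested, 18 were called higher and 1 lower. Mag, the adhesion molecule of the inner myelin wrap, had 0 UMIs outside the nerve cells and stood at 222, 342, 445 and 0 CPM in them. Several listed genes, among them Mag, Drp2, Mal, Pllp, Cldn19, Gjb1, Foxd3, Gpr37l1, Ugt8a, Fa2h and Kcna1, were at 0 in every cell of library 4, and it is not known whether genes were removed from single libraries before the tables were joined. Egr2, the transcription factor that switches on myelin genes, stood at 237, 444, 235 and 57.4 CPM against 24.5, 31.5, 22.9 and 15.9 (log2 fold change 3.09 ± 0.39 SE). Pou3f1, which acts ahead of Egr2, stood at 2613, 1791, 1484 and 115 CPM against 29.6, 23.2, 40.2 and 24.9. Myrf, a regulator of myelin in the brain and spinal cord, had 0 UMIs in the nerve cells.

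Genes for the lipids of the sheath followed. Of 18 genes listed for cholesterol synthesis and its control, 16 were tested, 14 were called higher and none lower, with a median log2 fold change of 3.90. Hmgcs1, which makes the precursor of mevalonate, stood at 1096.5, 1731, 1224 and 134 CPM against 53, 44.6, 39.8 and 61.2 (log2 fold change 4.02 ± 0.70 SE). Cyp51, which demethylates lanosterol, stood at 462, 597, 371 and 57.4 CPM against 13.3, 4.76, 9.14 and 12.9, and Idi1, an isomerase of the isoprenoid steps, at 500.5, 620.2, 532 and 57.4 against 16.5, 17.3, 16.9 and 22.7. Both were again lowest among the nerve sums in library 4. Mvk and Dhcr7 were tested and not called (log2 fold changes 1.15 and 1.12). Summed over the list, the nerve cells carried 4649.6, 6486, 5725 and 612 CPM in libraries 1 to 4, against 226 to 343 CPM in other cells.

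Of 14 genes for sphingolipids and fatty acids, 11 were tested, 9 were called higher and 1 lower. Scd2, a fatty acid desaturase, stood at 2120.4, 3443, 4427 and 1282 CPM against 68.9, 90.5, 70.8 and 82.4 (log2 fold change 4.86 ± 0.44 SE). Elovl6, an enzyme that lengthens fatty acids, stood at 222, 249.8, 235 and 57.4 CPM against 9.73, 5.95, 11.9 and 9.07. Ugt8a and Fa2h, which make the galactolipids typical of myelin, stood at 852, 767, 767 and 0 and at 443, 477, 458 and 0 CPM in nerve cells, with 2 and 3 UMIs in all other cells. Elovl5, another elongase, was the gene called lower, at 19.1, 10.5, 0 and 0 CPM against 65.5, 105, 40.2 and 69.5. The members of this list therefore did not all lie on the same side.

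Since the cholesterol genes lay higher together, their promoters were searched for the letters of a sterol regulatory element, the site bound by the SREBP factors that control this pathway. The motif TCACNCCAC was searched on both strands of the 300 bases around each gene's start (250 before to 50 after, from RefSeq on GRCm38.p6). It was found in 408 of 32851 promoters (1.24%). Of the 18 cholesterol genes 12 had a promoter entry, and 1 of the 12, that of Hmgcs1, held a match. The promoter of Hmgcs1 lies on the plus strand at chr13:119690101-119690400, and the match, in capitals, takes positions 114 to 122 of the printed strand.
Hmgcs1: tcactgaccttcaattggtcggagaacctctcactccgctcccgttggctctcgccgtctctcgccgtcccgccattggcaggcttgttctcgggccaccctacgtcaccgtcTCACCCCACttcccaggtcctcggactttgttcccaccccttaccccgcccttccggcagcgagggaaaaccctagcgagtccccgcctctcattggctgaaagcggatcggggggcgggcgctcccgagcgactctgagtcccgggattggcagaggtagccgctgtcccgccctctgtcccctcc

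A match describes these letters and not a bound factor, and a promoter with no match says only that the letters are not in that window.

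Among receptors and ligands, ErbB genes were followed first. Of 10 tested genes of neuregulin and ErbB signalling, 2 were called higher (Erbb3 and its partner Erbb2) and 1 lower (Egfr, the receptor of epidermal growth factor). Erbb2 was low, at 49.7, 38.4, 12.4 and 19.1 CPM against 8.99, 10.1, 7.77 and 9.83 (log2 fold change 1.75 ± 0.46 SE). Of the genes around the adhesion receptor Adgrg6 (Gpr126), the secreted protein Lgi4 and the hedgehog pathway, 5 of 7 tested were called higher. Adgrg6, which starts myelination through cAMP, stood at 115, 73.4, 124 and 363 CPM against 9.17, 6.55, 5.48 and 5.29 (log2 fold change 4.12 ± 0.42 SE). Lgi4 stood at 126, 101, 49.5 and 2315 CPM against 17.8, 3.57, 24.7 and 15.1, and its library 4 value rests on nerve cells 3, where 120 of 184 Lgi4 UMIs were in the 4 barcodes. Without library 4 the log2 fold change was 2.78 in place of 3.86. Dhh (desert hedgehog), the Schwann cell signal that builds the perineurium, stood at 195, 213, 297 and 95.6 CPM against 9.92, 13.7, 1.37 and 6.05 (log2 fold change 4.59 ± 0.57 SE). Its receptor Ptch1 was not called, at 53.5, 40.2, 12.4 and 38.3 CPM against 27.9, 45.2, 16.9 and 30.2.

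Of 18 neurotrophic ligands and receptors 5 were tested, with 2 called higher, Gfra1 and Sort1, and 1 lower, Ret, the signalling receptor that pairs with Gfra1. Gfra1, the co-receptor of the growth factor GDNF, stood at 103, 157, 124 and 995 CPM against 6.74, 6.55, 43.9 and 18.1 (log2 fold change 3.83 ± 0.62 SE), with the highest value in library 4. The ligands Ntf3, Gdnf, Artn and Lif had 0 UMIs in nerve cells, and Bdnf was found only in library 4 there, at 306 CPM, with 16 of its 16 nerve UMIs in the 4 barcodes. Ngfr, the p75 receptor of non-myelinating and injured-nerve Schwann cells, was low, at 15.3, 5.24, 0 and 19.1 CPM. Among semaphorins, plexins and their co-receptors, 6 genes were called higher and 6 lower of 18 tested. Sema3b stood at 871, 980.0, 1409.6 and 516 CPM against 25.8, 3.57, 23.8 and 20.4 (log2 fold change 5.61 ± 0.59 SE), while Nrp1, the neuropilin of blood vessels, stood at 7.64, 5.24, 37.1 and 19.1 CPM against 239, 376, 151 and 329 (log2 fold change -4.74 ± 0.61 SE).

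Of the neural adhesion genes, 8 of 9 tested were called higher and none lower. Cadm4, which sits on the Schwann cell side of the contact with the axon, stood at 806, 1055, 1125 and 115 CPM against 3.37, 4.76, 0.914 and 7.56 (log2 fold change 7.34 ± 0.90 SE). Nfasc (neurofascin), an adhesion molecule of the paranode, stood at 218, 311, 445 and 57.4 CPM against 5.8, 0, 20.1 and 2.27. Of 18 basal lamina genes and receptors, 6 were called higher and 1 lower of 18 tested. Dag1 (dystroglycan), a laminin receptor of the Schwann cell surface, stood at 1012, 1301, 1509 and 1645 CPM against 203, 178, 160.0 and 181 (log2 fold change 2.71 ± 0.29 SE). Among the laminin chains, Lamb1 was higher at 684, 715, 841 and 344 CPM against 90.4, 75.6, 44.8 and 121, and Lamb2 lower, at 38.3 to 86.6 CPM against 288 to 366. Of the channel genes, Kcna2, a potassium channel subunit, stood at 573, 349, 507 and 134 CPM against 4.12, 7.14, 5.48 and 1.51 (log2 fold change 6.28 ± 0.42 SE). Kcna1, a subunit of the same family, stood at 1494, 1639, 1842 and 0 CPM, with 7 UMIs in all other cells.

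The remaining genes with the largest rise are of mixed function. Gatm, the first enzyme of creatine synthesis, stood at 2850.1, 3251, 2794 and 306 CPM against 15, 9.52, 5.48 and 0.756 (log2 fold change 8.16 ± 0.42 SE). Plekhb1, a membrane-associated protein, was even across libraries, at 577, 590.5, 581 and 593 CPM against 2.25, 3.57, 2.29 and 0. Kif1a, a kinesin motor of vesicle transport, stood at 527, 535, 482 and 76.5 CPM, Arhgap19, a GTPase-activating protein, at 599.8, 641, 952 and 95.6 CPM, and Fam178b at 359, 503, 594 and 19.1 CPM, with at most 3.78 CPM in other cells. Sox2, a factor of immature Schwann cells, stood at 290.4, 136, 12.4 and 268 CPM against 0, 1.19, 0.914 and 0. Its lowest nerve level was in library 3, where 10 of 13 nerve cells were nerve cells 1, 3 were nerve cells 2 and none were nerve cells 3. With all libraries summed, Sox2 stood at 23.3, 195 and 425 CPM in nerve cells 1, 2 and 3.

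The 8 named genes with the largest fall had 0 UMIs in the nerve cells. They were Clic5 and Htra4, which were highest in bursal fibroblasts, Aspn (asporin, a matrix proteoglycan) and Scara3, highest in tendon fibroblasts, Alas2, the first enzyme of heme synthesis in red blood cells, and Cldn5, Emcn and Rasip1, highest in endothelial cells. Against a floor of 3 UMIs over all nerve cells, Clic5 was at least 122-fold lower, Aspn at least 97.8-fold, Scara3 at least 94.7-fold and Htra4 at least 88.1-fold. Cldn5, Emcn, Alas2 and Rasip1 were at least 62.5, 45.2, 44.5 and 38.6-fold lower. Such floors cover counting error only.

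Most markers of the other cell types were low in the nerve cells. All 8 endothelial markers were called lower and summed to 0 to 74.2 CPM in the nerve cells of a library, against 1168 to 3966 in other cells. Of 9 macrophage and immune markers 6 were at 0 in nerve cells, C1qa, C1qb, C1qc, Ptprc, Csf1r and Tyrobp. The 9 summed to 19.1, 5.24, 37.1 and 421 CPM in the nerve cells of libraries 1 to 4, against 2006, 308, 747 and 516 in other cells. The sum of library 4 was thus close to that of its other cells, and it was all Lyz2, a lysozyme gene, with 22 of 28 nerve UMIs in the 4 barcodes. All 6 matched skeletal muscle genes were at 0. Tendon fibroblast genes were present at a low level, with 11 of 11 tested called lower, sums of 2334 to 3037 CPM against 17091 to 125625 in other cells, and Tnmd at 0. In a single nerve cell these 12 genes took a median of 0.227% of UMIs and at most 1.9%, with 4 of 127 cells over 1%. No nerve cell gave over 1% of its UMIs to any of the 9 other marker lists checked. For several lists this says little, since they stayed under 1% even in the non-nerve population where they summed highest. These include the endothelial (8043 CPM), perineurial (1375 CPM), neuron (205 CPM) and melanocyte (119 CPM) lists. The pericyte, immune and red blood cell lists reached 24914, 18796 and 933520 CPM in their own populations. The share of the tendon fibroblast transcripts that is free RNA was not tested. Proliferation genes summed to at most 11.5 CPM. For the fibroblast-like cells of nerve itself, 1 of 5 tested endoneurial genes, Abca8a, was called higher, and 1 of 5 perineurial genes, Itgb4, which Schwann cells also express, with 2 called lower in each list.

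**Figure D3:**
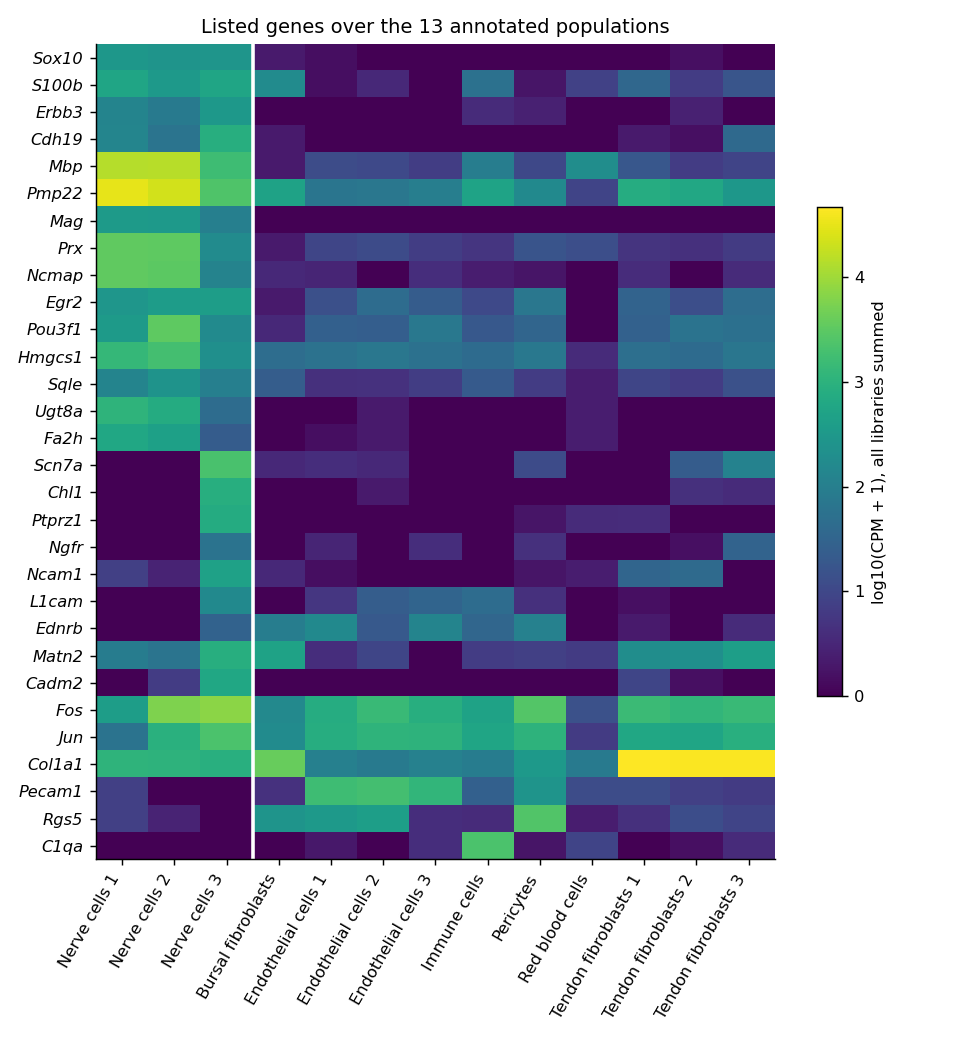
Colour gives log10(CPM + 1) of 30 listed genes in each of the 13 annotated populations, all libraries summed, with the nerve populations left of the white line. Sox10 and S100b are bright in all 3 nerve columns, Mbp and Pmp22 are brightest in nerve cells 1 and 2, and Scn7a, Chl1 and Cadm2 are bright in nerve cells 3 only among the nerve columns. Ptprz1 in nerve cells 3 comes almost wholly from the 4 near-identical barcodes.

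Nerve cells 3 were then set beside nerve cells 1 and 2. Both sides had 5 or more cells in libraries 1 and 2 alone. A test was to be run with 3 or more such libraries, so none was made, and the values do not include the 4 barcodes of library 4. Of 1814 genes with a mean of 100 or more CPM, 480 (26.5%) had a log2 ratio of 1 or more in the same direction in both libraries, with 313 higher (17.3%) and 167 lower (9.21%) in nerve cells 3. The median log2 ratio over the 1814 genes was 0.12. These shares stand beside the counts of each list that follow.

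Genes of non-myelinating Schwann cells were high in nerve cells 3. Scn7a, a sodium channel subunit known from non-myelinating Schwann cells, stood at 3025 and 3687.5 CPM in nerve cells 3 of libraries 1 and 2, and had 0 UMIs in nerve cells 1 and 2 of any library. It was at least 818-fold higher against a floor of 3 UMIs over both libraries. Chl1, an adhesion molecule of the L1 family, stood at 775 and 1101 CPM against 0, at least 225-fold higher, and L1cam itself at 208 and 330.2 CPM against 0, at least 64-fold higher. Of 16 genes listed for non-myelinating Schwann cells 8 passed the level filter, and 7 were higher in nerve cells 3 and none lower. A gene could pass through nerve cells 3 alone, so this count describes those genes and not the list.

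Ncam1, the neural cell adhesion molecule, stood at 491 and 908 CPM against 4.79 and 3.73 (log2 ratio 6.12 and 7.63). Cdh2 (N-cadherin) stood at 907 and 605 CPM against 33.5 and 16.8, Matn2, a matrix protein of nerve, at 926 and 1816 against 52.7 and 80.2, and Sostdc1, a secreted inhibitor of BMP and Wnt signals, at 832 and 1183 against 23.9 and 78.3. These 4 genes were over 15-fold higher on the CPM scale in both libraries. Kcna1, which was listed with them, was not separated, at 1474 and 2477 CPM against 1499 and 1582 (log2 ratio -0.02 and 0.65). Ngfr was at 75.6 and 82.6 CPM against 0 and below the filter. Gfra3 and Ednrb had 4 UMIs each in all nerve cells, and Gap43 had 0. Fibroblasts also carried Matn2, with 495 CPM in bursal fibroblasts and 417 CPM in tendon fibroblasts 3, above nerve cells 1 and 2.

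The 10 genes with the largest mean ratio also include genes of other functions. Cadm2, a synaptic cell adhesion molecule, had 82 UMIs against 2, a CPM ratio of 342 (exact 95% interval 91.8 to 2874). Entpd2, an enzyme that breaks down extracellular ATP, had a ratio of 726 (exact 95% interval 127 to 29010.3) on 1 UMI in nerve cells 1 and 2. S1pr3, a receptor for sphingosine-1-phosphate, stood at 1115 and 1046 CPM against 0 and 5.6. Outside the nerve cells, Entpd2 reached 623 CPM in tendon fibroblasts 3 and S1pr3 reached 225 CPM in pericytes. The complement gene C4b stood at 1039.7 and 1183 CPM against 4.79 and 1.87 and the protease inhibitor gene Serpina3n at 435 and 358 against 0, while tendon fibroblasts 2 carried 791 and 479 CPM of them. Other populations also carried Col11a1, a fibrillar collagen gene (681 and 523 CPM against 0 and 1.87), and Cd44, a hyaluronan receptor gene (208 and 358 against 0 and 0), with up to 858 CPM of Col11a1 (tendon fibroblasts 1) and 648 CPM of Cd44 (immune cells). Summed, the tendon fibroblast genes stood at 6093 CPM in nerve cells 3 without the 4 barcodes, above 2596 and 2484 CPM in nerve cells 1 and 2, and their part in these ratios was not tested.

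Myelin genes were lower in nerve cells 3 and still present. Mbp stood at 2817 and 2257 CPM in nerve cells 3 of libraries 1 and 2, against 11659.5 and 15466 in nerve cells 1 and 2 (log2 ratio -2.04 and -2.77). All other cells of these libraries carried 37.4 and 26.2 CPM, so that nerve cells 3 lay far above them too. Pmp22 stood at 3157 and 3495 CPM against 21274.5 and 26203 (log2 ratio -2.75 and -2.90). Of the 18 myelin genes that passed the filter, 14 were lower and none higher, again a count of the genes that passed. Ncmap had the lowest mean log2 ratio of all 1814 genes, at 302 and 0 CPM against 3261 and 3162, and Prx stood at 321 and 165 against 2935 and 3511 (log2 ratio -3.15 and -4.30). Cnp, an enzyme of non-compact myelin, was within the fold at 945 and 771 CPM against 1748 and 1503.5, and Egr2 was not lower at all, at 265 and 1073 against 229.8 and 401 (log2 ratio 0.24 and 1.44).

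Schwann lineage genes differed in both directions. Of 12, 3 were higher and 1 was lower in both libraries, and the others did not pass the fold in both. Sox10 stood at 227 and 110.1 CPM against 259 and 279.8 (log2 ratio -0.14 and -1.18). Erbb3, Cdh19 and Foxd3 were the higher ones, with Cdh19 at 1096 and 1101 CPM against 81.4 and 91.4 (log2 ratio 3.72 and 3.59). Cd9 was the lower one. Lgi4, the secreted ligand, stood at 529 and 991 CPM against 23.9 and 41 (log2 ratio 4.35 and 4.58), and Prnp, the gene of the prion protein, at 2060.5 and 2284 against 450.1 and 453 (log2 ratio 2.19 and 2.34).

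Of lipid genes, 9 of 12 cholesterol genes and 6 of 9 sphingolipid and fatty acid genes were lower in nerve cells 3, and none higher. Hmgcs1, whose promoter is printed above, stood at 208 and 303 CPM against 1322 and 1828 (log2 ratio -2.61 and -2.53). Ugt8a stood at 75.6 and 55 CPM against 1049 and 815 (log2 ratio -3.63 and -3.57). Over the whole cholesterol list the sums were 1323 and 1596 CPM in nerve cells 3 and 5085 and 4549 CPM in nerve cells 1 of libraries 1 and 2. Of 18 and 14 listed lipid genes the others did not pass the level filter, and a gene could pass through nerve cells 1 and 2 alone, so these counts too describe only the genes that passed. Of 17 neural adhesion genes 11 passed, with 8 higher and 2 lower, and Chl1, L1cam, Cadm2 and Ncam1 among them passed through nerve cells 3. The lower ones were Nfasc (56.7 and 82.6 CPM against 259 and 326) and Cadm3 (18.9 and 55 against 278 and 345); of the Cadm family, Cadm2 was thus higher and Cadm3 lower.

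Further named genes that were lower in nerve cells 3 had few or no UMIs there. Mfap5, a microfibril protein, Slc7a2, a transporter of cationic amino acids, Pacs2, a sorting protein, and Kcnk1, a potassium channel, had 0 UMIs in nerve cells 3 of both libraries and were at least 14.9, 11.1, 8.55 and 7.27-fold lower. Spp1 (osteopontin) had 2 UMIs against 1025, and nerve cells 1 and 2 stood above by a CPM ratio of 61.4 (exact 95% interval 17 to 508). Sema5a, an axon guidance gene, had 1 UMI against 562, a ratio of 67.3 (exact 95% interval 12 to 2664). Cav1 (caveolin), Fam178b and Igfbp5, a binding protein of insulin-like growth factors, had 1, 1 and 2 UMIs in nerve cells 3. These bounds rest on 15 and 12 cells with 52900 and 36339 UMIs in libraries 1 and 2.

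**Figure D4:**
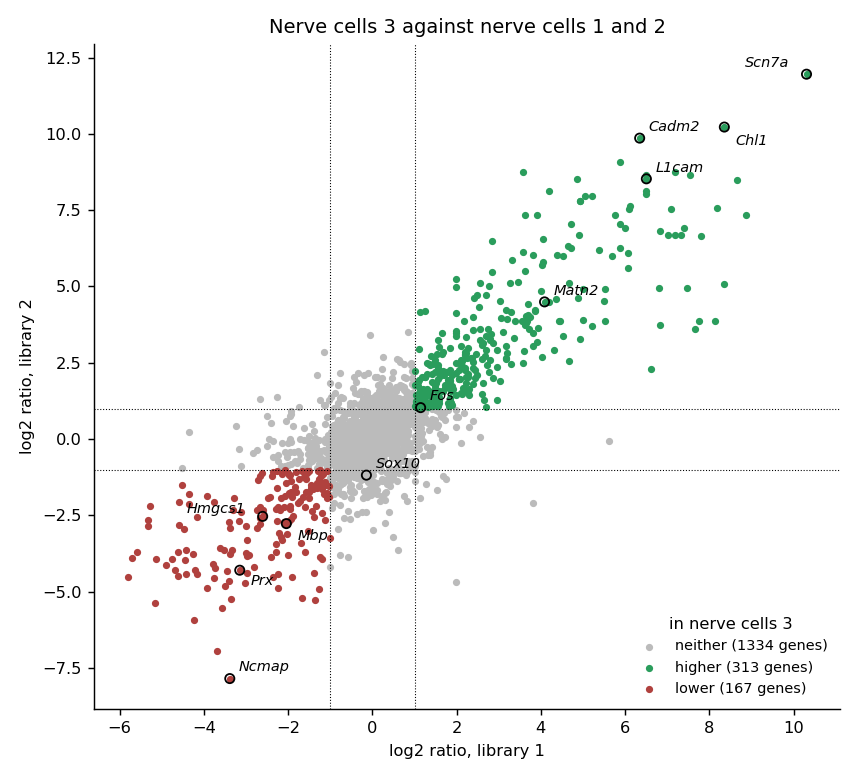
Each point is 1 of 1814 genes, with the log2 ratio of nerve cells 3 to nerve cells 1 and 2 in library 1 on the horizontal axis and in library 2 on the vertical axis, and dotted lines at a log2 ratio of 1 and -1. The 313 green genes are higher and the 167 red genes lower in both libraries, with Scn7a at the top right and Ncmap at the bottom left.

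The populations were also compared cell by cell. Mbp made up a median of 1.17% of the UMIs of a cell in nerve cells 1 (range 0.3 to 7.84%), 1.33% in nerve cells 2 (range 0.357 to 2.15%), and 0.205% in the 28 nerve cells 3 other than the 4 barcodes (range 0.0236 to 0.895%). The ranges of Mbp thus overlapped. Scn7a was found in 96.4% (27 of 28 cells, 81.7 to 99.9) of those cells. It was found in 0 of 49 nerve cells 1 and 0 of 46 nerve cells 2, which allows shares of cells with a UMI, not of cells that express the gene, of up to 7.25% and 7.71%. The intervals are exact and cover counting error only. Of the 32 nerve cells 3, 27 had UMIs of both Mbp and Scn7a, 1 of Mbp alone, 0 of Scn7a alone, and 4 of neither, the 4 being the near-identical barcodes.

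With every cell thinned to 2400 UMIs, which left out 10 of the 28 cells, Mbp was found in 17 of 18 (94.4%) of nerve cells 3 without the 4 barcodes, and Scn7a in 18 of 18 (100%). In endothelial cells 1, which served as the background of free RNA, the thinned shares were 6 of 176 (3.41%) for Mbp and 1 of 176 (0.568%) for Scn7a, at median depths of 7343 and 2652 UMIs before thinning. Both genes were thus above background in nerve cells 3. Chl1 was found in 85.7% (24 of 28 cells, 67.3 to 96), and in 0% (0 of 190 cells, 0 to 1.92) of endothelial cells 1. Sox10 was found in 70.9% of all nerve cells and in 45.9% after thinning, against 1 of 190 endothelial cells 1. Ptprz1 was found in 2 of the 28 cells, with 2 UMIs in all.

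**Figure D5:**
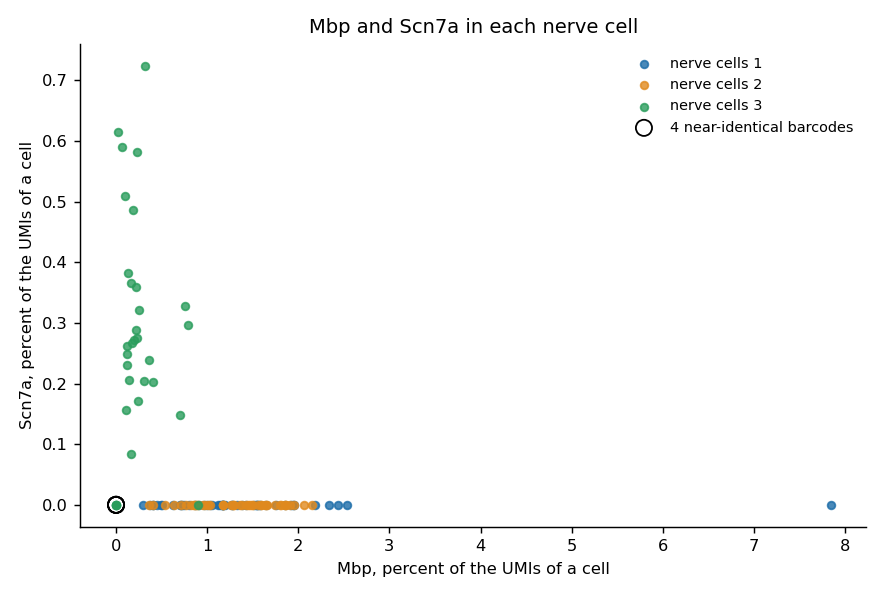
Percent of a cell's UMIs from Mbp (horizontal) and from Scn7a (vertical) in each of 127 nerve cells, coloured by population, with the 4 near-identical barcodes ringed. Nerve cells 1 and 2 lie on the line of no Scn7a, nerve cells 3 lie at 0.895% Mbp or less, where some nerve cells 1 and 2 also lie, and the ringed cells are at 0 for both genes.

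Genes that respond to tissue dissociation differed among the populations. The 16 listed genes, immediate early and heat shock genes that are induced while cells are freed from tissue, summed to 717, 1988 and 931 CPM in nerve cells 1 of libraries 1 to 3, to 15383, 20942 and 14702 CPM in nerve cells 2 of the same libraries (3 cells in library 3), and to 30397, 33022 and 12921 CPM in nerve cells 3 of libraries 1, 2 and 4. In library 4, the 4 near-identical barcodes held 48337 of the 49531 UMIs of nerve cells 3. Without these barcodes, nerve cells 3 of all libraries pooled carried 31570 CPM. All other cells carried 6847 to 7185 CPM. Of the 16 genes, 9 were higher in nerve cells 3 than in nerve cells 1 and 2 in both libraries and none lower. That reference pools the low levels of nerve cells 1 with the higher ones of nerve cells 2, and the genes were not counted against nerve cells 2 alone. Fos stood at 7543 and 8999 CPM against 3414 and 4408 (log2 ratio 1.14 and 1.03), Atf3 at 3119 and 2999.5 against 479 and 394 (log2 ratio 2.70 and 2.93), and Socs3 at 1607 and 1348 against 206 and 263. Their part in the differences between nerve populations was not tested. Jun and Atf3 also stand in the list of 12 immature or repair Schwann cell genes, of which 10 were in the count table and 4 passed the level filter. Of these 4, 3 were higher in nerve cells 3, which were Jun, Atf3 and Sox2 (log2 ratio 1.45 and 1.85 for Sox2). A gene could pass through nerve cells 3 alone, so this count describes those genes and not the list. The listed genes Gdnf and Artn had 0 UMIs in the nerve cells. In the comparison of all nerve cells with other cells 1 of the 16 was called higher, Nr4a1.

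Nerve cells 1 and 2 had pooled Mbp levels of 13862 and 14764 CPM. Pou3f1 stood at 347 and 3229.8 CPM and Fos at 393 and 5731 CPM.

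The 4 near-identical barcodes carried Schwann lineage genes and a set of genes that were at or near 0 in the other nerve cells 3. Their pooled UMIs gave 11771.5 CPM of Aqp1 and 7262 CPM of Mgp, against 11.1 CPM of each in the other nerve cells 3. Populations other than the nerve cells carried both genes, with Aqp1 at up to 3775 CPM (endothelial cells 2) and Mgp at up to 4812 CPM (tendon fibroblasts 3). Gpr37, a receptor of glia, and Ajap1, a junction protein, stood at 1014 and 869 CPM, with 0 and 0 in the other nerve cells 3 and at most 2.4 and 0 CPM in any population other than the nerve cells. Nerve cells 1 and 2 carried 3.33 and 3.78 CPM of Gpr37. Sema3d (1117 CPM), Dkk3 (1510.2) and Robo2 (662) were at 0 in the other nerve cells 3. Fmod, Prelp and Igf1, which tendon fibroblasts express, stood at 1531, 952 and 724 CPM. Mbp and Scn7a, at 2576 and 3262 CPM in the other nerve cells 3, had 0 UMIs in the 4 barcodes. Of the 5 genes that led nerve cells 3 over every other population, Ptprz1, Bche and Ajap1 rested on these barcodes, with 52 of 55 Bche UMIs there, whereas Chl1 and Cadm2 did not. These values come from 1 library, and 43707 of the 48337 UMIs from 1 barcode, so they have no replicate.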

How the data were processed

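Single cells of Achilles tendons were measured in 4 libraries with the 10x Chromium 3-prime kit, version 3, per the labels. The deposited counts are raw UMI counts per gene and cell, and per the submitters' processing notes Cell Ranger, Seurat 2.3.4, R 3.5.2 and the build mm10 were used; aligner settings, cell filters and clustering are not given in the sources used here. The authors also deposited a table in natural log units, ln(1 + 10000 × count / cell total), which served only as a check. Of 15750 gene entries 4 with repeated names, 0.0186% of UMIs, were left out.

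Cells were grouped by the authors' annotation. UMIs were summed per library and group where 5 or more cells were present, and CPM is a count per 1000000 UMIs of the sum. Nerve cells were compared with other cells in edgeR 4.0.16 (R 4.3.3, limma 3.58.1; quasi-likelihood test, TMM, filterByExpr, Benjamini-Hochberg adjustment over all genes tested, threshold 0.05), with the library as a block because both sums come from the same library. The deviations of paired sums correlated at 0.0256 to 0.0944. On simulated counts for this comparison (8693 genes, 200 changed by 2 on the log2 scale) the test recovered 44.0% of the changed genes, with 1 false call. The simulation gave every gene a dispersion of 0.15, had no differences between libraries and used the same profile for all unchanged genes on both sides. Its rates need not hold for the real counts.

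Nerve cells 3 had sums beside nerve cells 1 and 2 in 2 libraries, so a gene was counted where its log2 CPM ratio (0.5 UMI added) passed 1 in both, among genes with a mean of 100 or more CPM. Named genes are the 16 with the largest rise and 8 with the largest fall among calls with the same direction in every library and 100 or more CPM on the higher side, the 10 each way for nerve cells 3, listed genes, and up to 5 leading genes per population. Members and lists were chosen with earlier results of these data known. Floors of 3 UMIs, exact Clopper-Pearson or Poisson-based intervals at 95%, exact sign-flip tests over libraries and thinning to 2400 UMIs (numpy 2.4.6, scipy 1.17.1, pandas 2.3.3) were used. The alternatives were DESeq2 1.42.0, other filters and cell minimums, no block, left-out libraries and populations, and the 4 barcodes left out, the last chosen after seeing the data. No doublet caller was run. A few genes of the lists are counted but not reported here by name. Genes that overlap or have near copies may share reads, since the counting is not described.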

Additional observations from a re-analysis of the deposited data

Results flagged for a closer look

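Over the 4 libraries 22 values of the nerve cells were checked for a library far from the others, and 3 were singled out, where chance gives about 1 in 20. Each has library 4 at the far end. Sox10 stood at 421 CPM in the nerve cells of library 4, above 252, 269 and 247 CPM in libraries 1 to 3. Gatm stood at 306 CPM there, below 2850.1, 3251 and 2794. Kif1a stood at 76.5 CPM, below 527, 535 and 482. The 4 near-identical barcodes hold 92.5% of the nerve UMIs of library 4.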

How the results depend on the processing

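In nerve cells against other cells 1905 genes were called. The count was 3051 with nerve cells 1 and 2 only, 539 with nerve cells 3 only and 3087 with no filter on low counts. It ran from 965 (without library 2) to 2670 (without library 4) as each library was left out in turn, with 1181 without library 1. The fits with nerve cells 1 and 2 only and with nerve cells 3 only had 3 libraries each. The first had no library 4, so the count to set beside it is 2670. The second had no library 3, and 4 of its 5 cells of library 4 were the near-identical barcodes. Under the other settings the count was within 1.5 times of 1905, with 1937 by DESeq2. It was 2363 with no replicate block for the library, so that the pairing moved it by less than 1.5 times. Among calls, 39.7% were higher in nerve cells, and 48.2% with cells thinned. The fit with thinned cells had 3 libraries, without library 4, and tested 4354 genes. Whole cells without library 4 gave 42.3%. The 24 named genes of this comparison kept their direction and their call in all 350 of their values under the alternatives. They had been picked from the calls for the largest changes with the same direction in every library, so this was largely set by the choice. The 350 values are also not all separate. A minimum of 3 cells gave the main fit again, and a minimum of 10 cells and leaving out the 4 barcodes both gave the fit without library 4. A gene that was not tested under a setting gave no value there. For nerve cells 3 against nerve cells 1 and 2 the count of 480 became 3559 with no filter on low counts, and 733 to 825 with a single library, where agreement between libraries is no longer asked. It was 617 against nerve cells 1 alone and 463 against nerve cells 2 alone. Of the named genes' log2 ratios under the alternatives, 135 stayed within the spread between libraries and 25 moved further, none to the other sign. Many of the 135 could not have moved further. Other cell minimums and the lack of a filter leave a ratio as it is, and leaving out a library shifts the mean by less than that spread. The named genes were also picked for the same sign in both libraries. Only thinning and the comparisons with nerve cells 1 or 2 alone could move a ratio past the spread. No test, and so neither DESeq2 nor a fit with or without a block, was run for nerve cells 3 against nerve cells 1 and 2. Both sides were present in fewer than the 3 libraries asked for. The share of nerve cells with a Sox10 UMI was 70.9%, and 45.9% with cells thinned. The mean share of nerve cells was 6.34% to 12.6% and that of nerve cells 3 among nerve cells 17.0% to 44.8% as libraries were left out. Depth limits the 32 nerve cells 3 most, with a median of 2591 UMIs.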

Other observations

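Interferon-induced genes, chosen here after their values were seen, were high in nerve cells 3 of library 1. In nerve cells 3, Gbp2, a guanylate-binding protein gene, stood at 4102 and 605 CPM in libraries 1 and 2, against 153 and 3.73 CPM in nerve cells 1 and 2. Ifit3 stood at 2665 and 55 CPM against 225 and 3.73, Ifit1 at 2589.8 and 0 against 23.9 and 1.87, and Isg15 at 2079 and 248 against 977 and 76.5. All 4 were far higher in nerve cells 3 of library 1 than of library 2. In all other cells Gbp2 and Ifit3 ran from 9.6 to 45.2 and from 11.9 to 32.2 CPM over the 4 libraries.

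A pair of further genes, chosen in the same way, were high in nerve cells 3 of both libraries. Meg3, a long noncoding RNA, stood at 1134 and 853 CPM against 14.4 and 3.73, and Rarres2, the gene of the secreted protein chemerin, at 926 and 1569 against 91 and 26.1. Both are also expressed by other populations, Meg3 most in tendon fibroblasts 3 (1205 CPM) and Rarres2 most in tendon fibroblasts 2 (391 CPM).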
